A study of Rattus norvegicus with 27 samples.

Results

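The genes described here encode the proteasome, its assembly chaperones and its activators, as measured in rat parotid acini. The parotid is a salivary gland whose acinar cells secrete a watery, protein-rich saliva. The genes were chosen by name: every gene whose symbol is Psma, Psmb, Psmc, Psmd, Psme or Psmg followed by a digit in the array annotation, without Psmb8 and Psmb9. The rule gave 43 of the 14217 genes that had a probe set with a single symbol. Each gene is represented by its brightest single-symbol probe set by mean over all arrays. Of the 43 genes, 41 encode subunits, chaperones or activators, and Psmc3ip and Psme3ip1 only carry the name of a subunit that their products bind. Psmb6 and Psme3 lay on probe sets shared with other symbols and were not analysed here. Psma3 also had a probe set shared with Psma3l that was brighter (mean 10.18) than the one used (8.67), and its change is not given here. All arrays were of untreated Sprague Dawley rats (spelled Sprauge Dawley in the labels), with no genotype given. Acini were cut by laser from tissue sections at 9 ages, with 3 arrays per age and 27 in all. E18 and E20 are days of gestation, P0 is birth, and the later ages are P2, P5, P9, then P15, P20 and lastly P25, in days after birth. Per the study's methods, the samples of an age came from separate litters, and sections came from whole heads at the ages to P5 and from dissected glands at P9 and later. The study drew 4 stages from these same arrays. Stage 1 spans E18 to P0 (9 arrays), stage 2 joins P2 to P5, stage 3 joins P9 to P15, and stage 4 joins P20 to P25, with 6 arrays in each of the later 3.

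The proteasome is the main machine that degrades ubiquitin-tagged proteins in the cytosol and nucleus. Its core particle, the 20S proteasome, is a barrel whose outer rings are alpha subunits and whose inner rings are beta subunits, some of which carry the proteolytic sites. The 19S regulatory particle caps the barrel, where its ATPases unfold substrates and its non-ATPase subunits bind and remove ubiquitin. Secretory cells such as parotid acinar cells also rely on it to degrade misfolded proteins returned from the endoplasmic reticulum, and interferon signals exchange catalytic beta subunits for those of the immunoproteasome.

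The promoters of the genes were examined for short sequences that several members hold. RefSeq promoter sequences (build GRCr8, 250 bases before to 50 after the start) matched 39 of the 43 genes, with Psma7, Psmd12, Psmd14 and Psmd6 unmatched. For 5 genes on which the comparisons turn, the 150 bases before the start are printed on the strand of the gene. The capitals mark CCAAT, the box bound by NF-Y, in Psma2, CGGAAG, the core bound by ETS factors, or its reverse complement in Psmb4, Psmb7 and Psmc1, and GAAANNGAAA, the core of the interferon response element, in Psmb10. A single motif is marked per gene, and the searched windows of Psmb7 and Psmc1 also held CCAAT, which is not marked. The windows lie at chr17:55260442-55260591 (minus strand) for Psma2, chr2:185134562-185134711 (minus) for Psmb4, chr3:42827471-42827620 (minus) for Psmb7, chr6:125122347-125122496 (plus) for Psmc1 and chr19:50743293-50743442 (minus) for Psmb10.
Psma2: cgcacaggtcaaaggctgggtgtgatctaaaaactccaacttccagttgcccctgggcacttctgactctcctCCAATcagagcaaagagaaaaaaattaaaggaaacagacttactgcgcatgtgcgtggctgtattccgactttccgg
Psmb4: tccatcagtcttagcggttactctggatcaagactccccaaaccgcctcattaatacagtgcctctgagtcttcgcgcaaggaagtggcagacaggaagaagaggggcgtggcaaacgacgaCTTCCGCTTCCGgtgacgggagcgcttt
Psmb7: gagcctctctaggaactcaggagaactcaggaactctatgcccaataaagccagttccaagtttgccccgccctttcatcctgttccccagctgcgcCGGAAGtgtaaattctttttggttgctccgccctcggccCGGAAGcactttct
Psmc1: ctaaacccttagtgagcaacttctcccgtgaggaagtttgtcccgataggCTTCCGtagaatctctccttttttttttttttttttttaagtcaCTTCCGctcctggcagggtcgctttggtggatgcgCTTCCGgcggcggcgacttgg
Psmb10: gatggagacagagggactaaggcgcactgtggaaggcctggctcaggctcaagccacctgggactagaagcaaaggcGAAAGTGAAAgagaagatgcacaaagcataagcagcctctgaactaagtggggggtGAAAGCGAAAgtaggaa

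Both strands of the 300-base windows were searched for these letters. CGGAAG occurred in 22 of the 39 matched members (56.4%) and in 16.6% of all 33469 promoters. CCAAT occurred in 19 members (48.7%, against 37.5% of all promoters), and TGACNNNGC, the core bound by NRF1 (the product of Nfe2l1), in 7 (17.9%, against 12.1%). The interferon core occurred in 6 members, Psma4, Psmb3, Psmb10, Psmd7, Psme2 and Psmg4 (15.4%, against 3.92%). The ER stress response element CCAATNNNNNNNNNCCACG, which holds CCAAT and therefore overlaps that search, occurred in 0 members and in 0.0657% of all promoters. These are matches of letters and were not tested as sites of binding. CGGAAG occurred in members that fell between stages 1 and 4, such as Psmb4, Psmb7 and Psmc1. It also occurred in members with no called fall, such as Psmc4, Psmd4, Psmd8 and Psmd11. Whether any motif goes with the changes described below was not tested.

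The mean levels of the chosen, brightest probe sets ran from 6.71 to 11.75 log2 units, where the median probe set stood at 6.07. Single arrays went lower, down to 4.95 for Psmg2 in stage 3. In each array the median of the 43 levels was taken as a summary. It was 9.77 ± 0.02 at E18, 9.46 ± 0.17 at E20, 9.54 ± 0.19 at P0, 9.35 ± 0.23 at P2 and 9.44 ± 0.33 at P5 (mean ± SD of 3 arrays). It was then 9.05 ± 0.18 at P9, 9.09 ± 0.20 at P15, 9.02 ± 0.23 at P20 and 8.94 ± 0.15 at P25. The 9 arrays of stage 1 lay between 9.27 and 9.79 and the 6 of stage 4 between 8.77 and 9.23, so these stages did not overlap, whereas stages 1 and 2 (9.10 to 9.76) did.

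**Figure D1:**
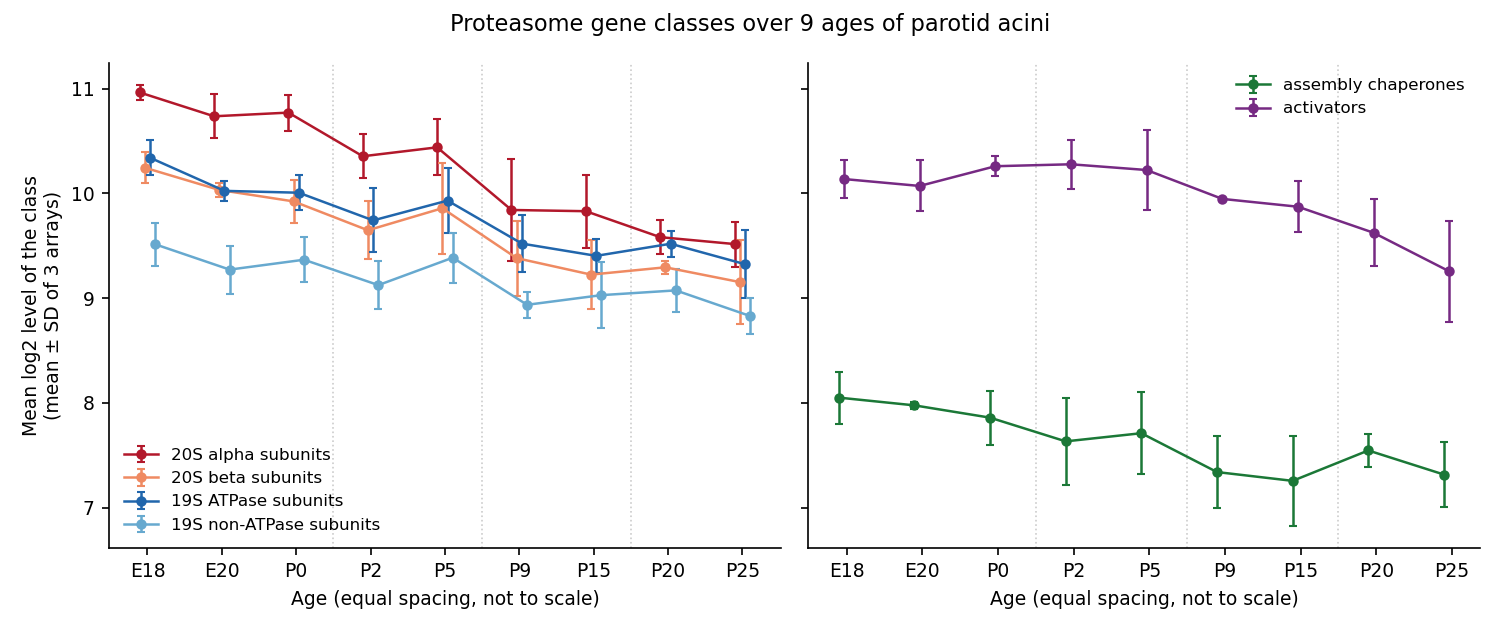
Mean log2 level of each class of proteasome gene at 9 ages (mean ± SD of 3 arrays, ages at equal spacing, dotted lines between the 4 stages). At E18 and P25 the 20S alpha subunits averaged 10.96 and 9.52, and the 19S non-ATPase subunits 9.51 and 8.83.

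Across the whole series, array medians lay between 5.91 and 6.13, and arrays of the same age correlated at 0.873 to 0.962. Array SDs were 2.27 to 2.41 in stage 1 and 2.05 to 2.26 in stage 4, so the spread of levels within an array was narrower at the later ages. Over all 31042 probe sets the median change was 0.19 between stages 1 and 4 as deposited (0.08 after quantile normalisation) and 0.24 between E18 and P25, and changes relative to that median are given beside the class medians below. Probe sets with a mean of at least 9 had a median of -0.39 between stages 1 and 4. Set against those, the class medians would be smaller falls than the relative values. A list of 11 acinar markers averaged 4.45 to 6.45 in stage 1, near the array medians, and 12.75 to 13.01 in stage 4, so the early captures did not yet carry the defining acinar transcripts at high level. Skeletal muscle markers (9 genes) averaged 6.21 to 11.78 in stage 1, 5.95 to 11.17 in stage 2, 5.00 to 12.21 in stage 3 and 5.54 to 9.07 in stage 4, and exceeded 10 in 7 arrays (E18 replicate 1, E20 replicate 1, P0 replicates 1 and 3, P5 replicates 1 and 3 and P9 replicate 3). Between stages 1 and 4 the range of the epidermis list (8 genes) was 5.03 to 9.44 and then 4.76 to 5.39, that of the cartilage list (9 genes) 6.18 to 9.94 and then 5.04 to 5.86, and that of the fibroblast list (10 genes) 10.06 to 11.40 and then 8.73 to 10.14. The part of fibroblasts in the changes below was not tested. The 3' to 5' difference of the GAPDH control, a measure of RNA quality, lay between 1.12 and 2.76. In bulk captures, fewer cells of a type and less RNA per cell cannot be told apart.

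The comparison of stage 4 with stage 1 asks how the proteasome transcripts of the maturing gland differed from those around birth. As a group they were lower: 28 of 43 members fell, 1 rose and 14 passed in neither direction (limma, adjusted p under 0.05), where 17.8% of all probe sets fell and 27.2% rose. The median change of the members was -0.72 log2 units, or -0.91 relative to the median of all probe sets, and 38 of 43 had a negative change. In 11 members every stage 4 array lay below every stage 1 array, which held for 5.46% of all probe sets: Psma1, Psma2, Psma5, Psma6, Psma7, Psmb3, Psmb4, Psmb7, Psmc1, Psmd10 and Psme1. Without the 7 arrays rich in muscle markers the median change was -0.70 and 21 members fell. Muscle, epidermis and cartilage markers as covariates also left 21 that fell. The shares of all probe sets that fell under these settings are not given here.

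Bright probe sets in general moved the same way. Of the 3348 probe sets with a mean of at least 9, 45.4% fell and their median change was -0.39, against 21 of the 26 members at that level, whose median was -0.79. Of the 9788 probe sets with a mean under 5, 4015 rose and the median was 0.42. Quantile normalisation left 20 members that fell and 2 that rose, where 14.9% of all probe sets fell, and scaling of the arrays to the same mean and SD left 19 that fell and 3 that rose, where 15.0% fell. With median centring the count stayed at 28. Of the 28 members, 18 fell under the deposited values and all 3 of these scalings, namely the 7 alpha subunits, Psmb1, Psmb2, Psmb3, Psmb4, Psmb7, Psmc1, Psmd14, Psmd10, Psme1, Psme2 and Psmc3ip.

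**Figure D2:**
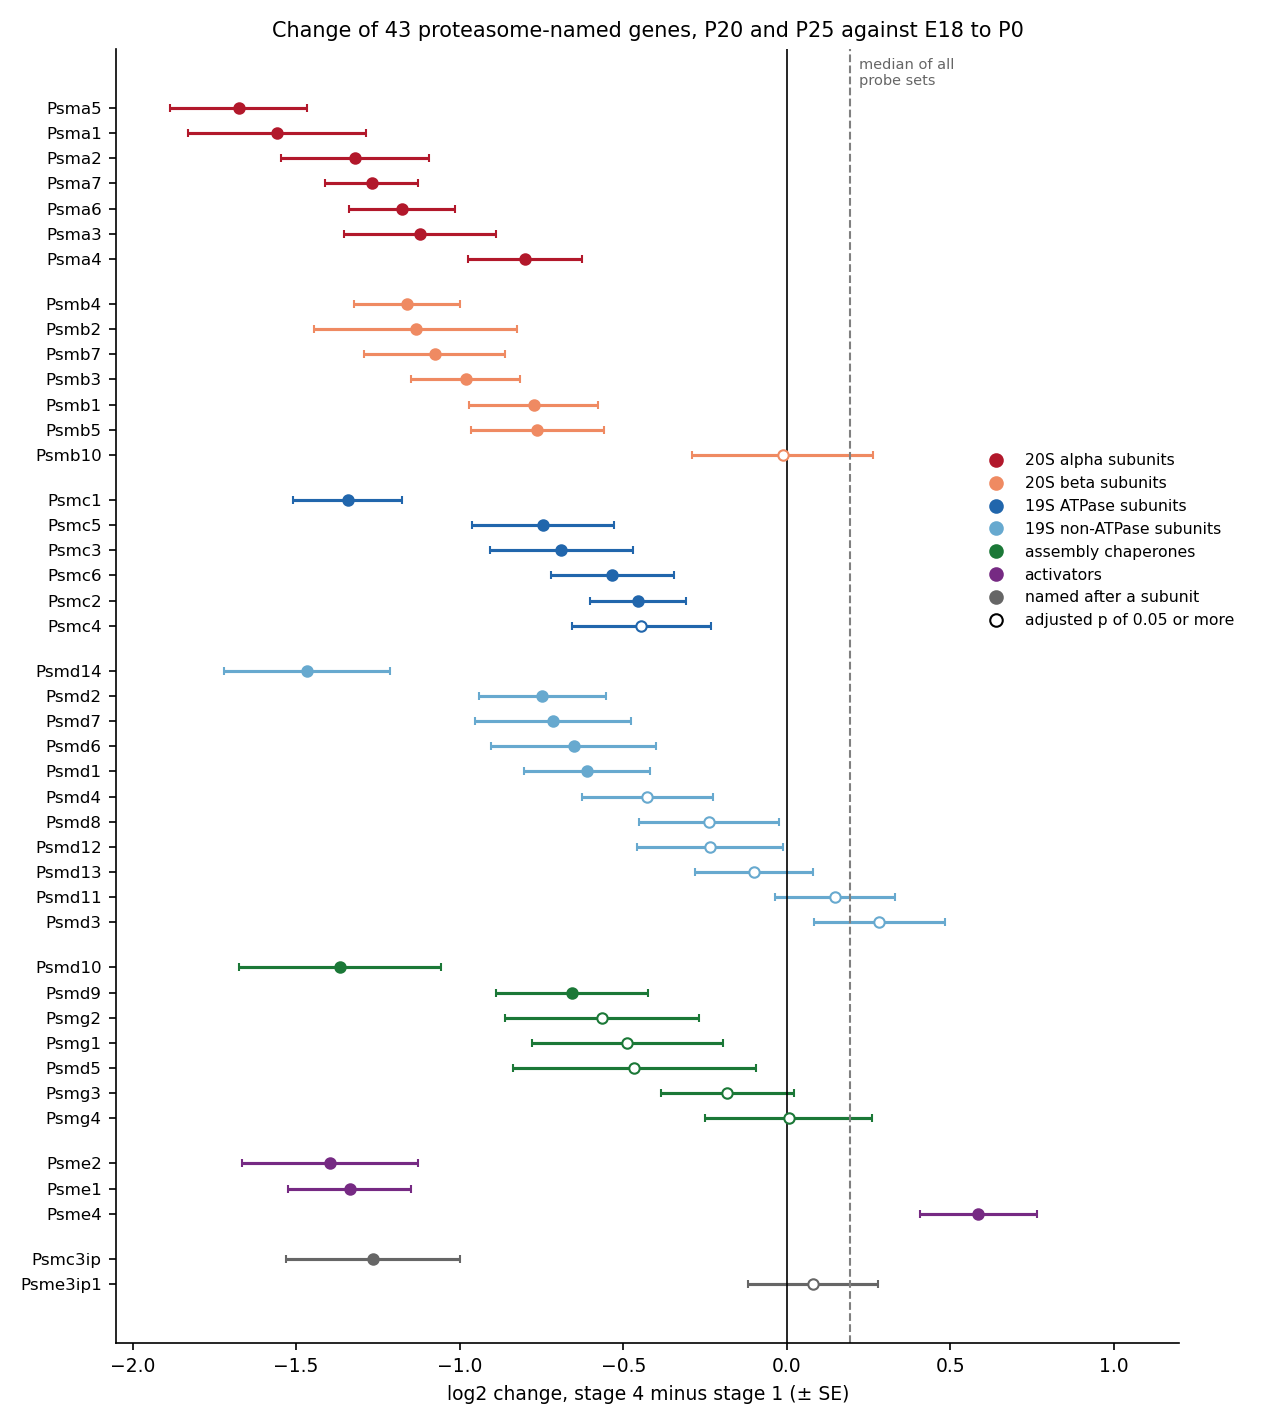
Change of each of the 43 genes between stages 1 and 4 (log2 units ± SE of the fit), grouped by class, with filled points for an adjusted p under 0.05. The alpha subunits lie between -1.68 and -0.80, and Psme4 is the one filled point to the right of 0.

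The alpha subunits build the outer rings of the core and form the gate through which substrates enter. All 7 fell, with a median of -1.27 (-1.46 relative to all probe sets). Psma5 had 10.68, 11.28 and 10.71 at E18, 10.86, 11.15 and 10.52 at E20 and 10.95, 10.91 and 10.55 at P0. At P20 it had 9.48, 9.06 and 9.13, and at P25 9.00, 9.81 and 8.54. Every late array therefore lay below every early one, and Psma5 fell by 1.68 ± 0.21 log2 units, or 3.20-fold (adjusted p = 2.47e-06). Psma7 had a lowest, median and highest level of 12.13, 12.37 and 12.66 in stage 1 and of 10.88, 11.11 and 11.43 in stage 4. Its stages were again apart, with a fall of 1.27 ± 0.14 (2.41-fold, adjusted p = 6.51e-07). Psma1 fell by 1.56 ± 0.27, Psma2 by 1.32 ± 0.23, Psma6 by 1.18 ± 0.16 and Psma3 by 1.12 ± 0.23. The smallest change of the class was that of Psma4, which fell by 0.80 ± 0.17 and whose stage 4 arrays (8.35 to 9.60) overlapped those of stage 1 (9.37 to 10.06). Of the age means, Psma1 had the widest range in the class (1.98, from 10.70 at E18 to 8.71 at P25) and Psma4 the narrowest (1.16).

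**Figure D3:**
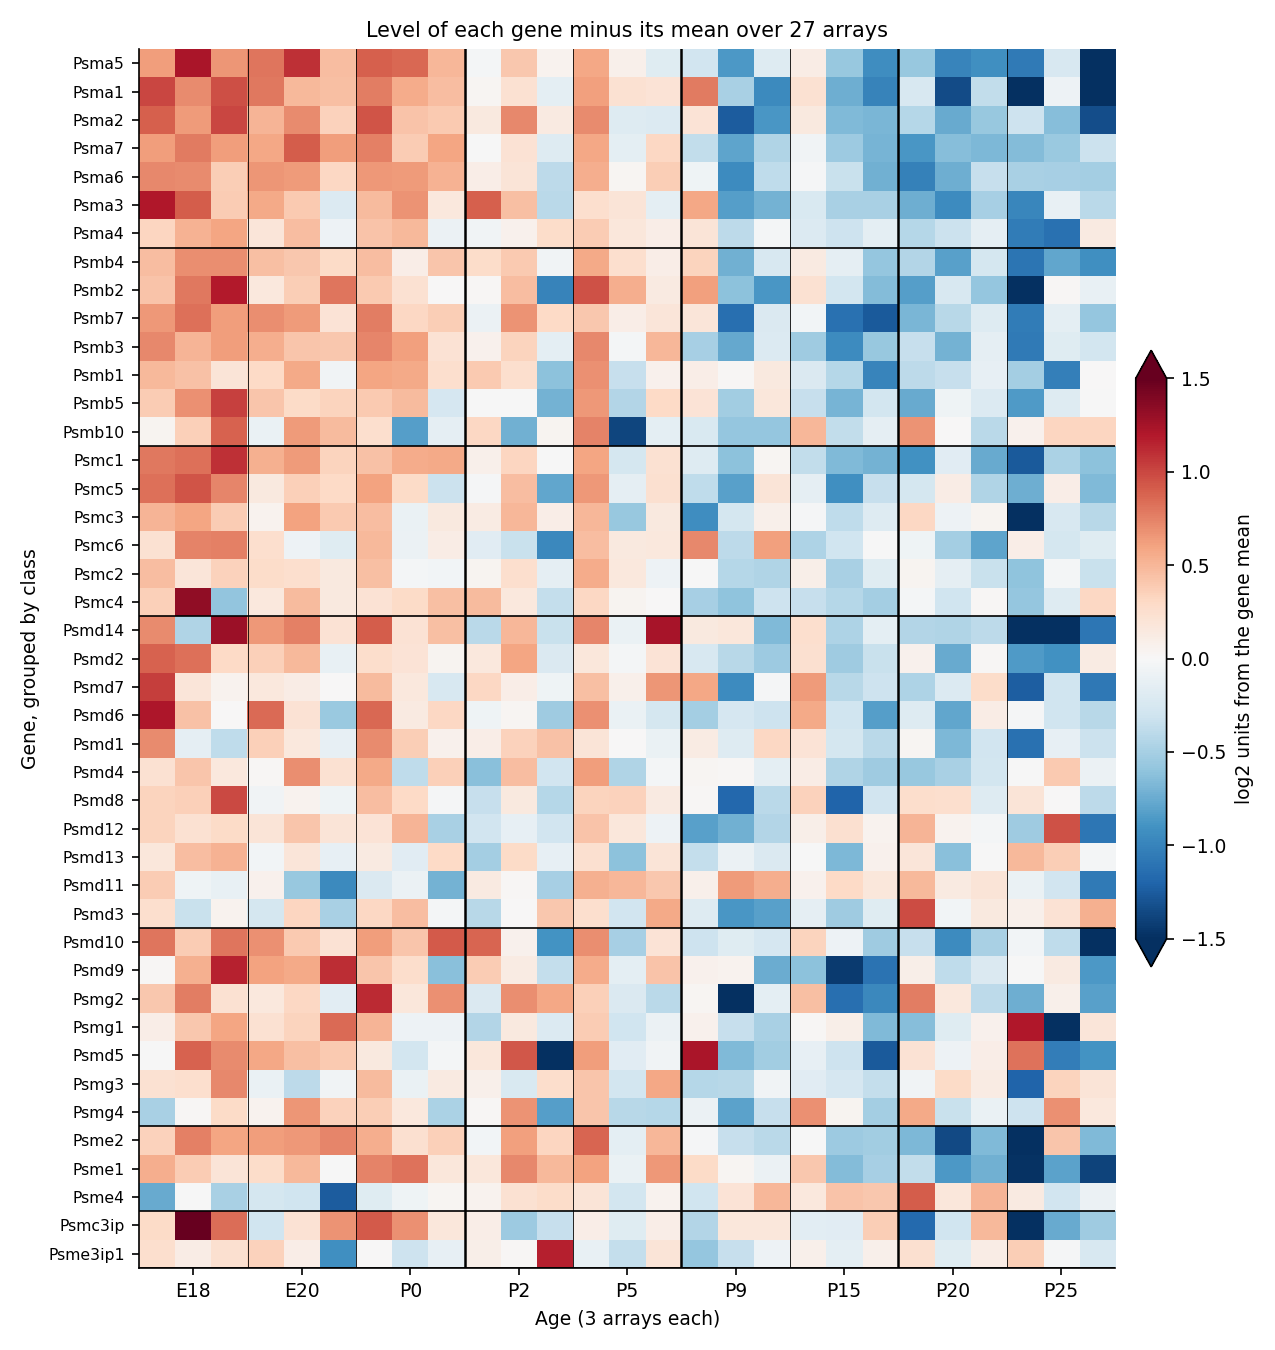
Level of each of the 43 genes in each of the 27 arrays, as log2 units from the mean of that gene over all arrays (red above, blue below, thick lines between stages). The 7 alpha subunits are above their mean in nearly all arrays of E18 to P0 and below it in nearly all of P20 and P25, while the rows of Psmd3, Psmd11 and Psme4 do not follow this.

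The beta subunits form the inner rings. Of the 7 measured, 6 fell and the median was -0.98 (-1.17 relative to all probe sets). Psmb7 carries the trypsin-like site and Psmb5 the chymotrypsin-like site of the constitutive core, while Psmb10 is the interferon-inducible subunit that takes the place of Psmb7. Psmb7 had 11.29, 11.46 and 11.26 at E18, 11.33, 11.27 and 10.85 at E20 and 11.41, 10.95 and 11.01 at P0, against 9.95, 10.23 and 10.44 at P20 and 9.59, 10.50 and 10.06 at P25. No late array reached an early one, and Psmb7 fell by 1.08 ± 0.22 (2.11-fold, adjusted p = 0.00054). Psmb4, a structural subunit, fell by 1.16 ± 0.16 (2.24-fold, adjusted p = 1.08e-05), from 11.41 to 12.00 in stage 1 to 10.21 to 11.04 in stage 4, also without overlap. Psmb2, Psmb3 and Psmb1, further structural subunits, fell by 1.13 ± 0.31, 0.98 ± 0.17 and 0.77 ± 0.20.

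Psmb5 fell by 0.76 ± 0.20 on its bright probe set (mean level 10.46), with stages that overlapped (10.22 to 11.49 and 9.62 to 10.46). Its further probe sets were dim, with means of 4.35 and 4.08, and rose by 0.81 ± 0.16 and 0.92 ± 0.19, as many dim probe sets did. The mean of its 3 probe sets gave 0.32 ± 0.15 (adjusted p = 0.0814), and scaling to the same mean and SD gave -0.39 ± 0.20 (adjusted p = 0.143). The direction of Psmb5 therefore rests on the bright probe set.

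Psmb10 did not share the decline between stages 1 and 4. It had 7.81, 8.12 and 8.65 at E18, 7.67, 8.40 and 8.24 at E20 and 8.02, 6.93 and 7.63 at P0, and 8.44, 7.77 and 7.36 at P20 and 7.83, 8.08 and 8.08 at P25. The stages overlapped throughout, and the change was -0.01 ± 0.28 (adjusted p = 0.974), with the lowest age mean at P9 (7.30). Within that span Psmb10 was not flat: it changed by -0.69 ± 0.43 from E18 to P5 and by 0.70 ± 0.43 from P9 to P25, neither called. The log2 difference between Psmb10 and Psmb7 changed by 1.06 in favour of Psmb10 between stages 1 and 4 (exact permutation test of 9 against 6 arrays, two-sided, p = 0.00300, 5005 permutations). A second difference that was planned, with Psme3, could not be computed, so this was the only p-value of its kind. With arrays scaled to the same mean and SD the difference changed by 0.82 (exact p = 0.00639), and without the muscle-rich arrays by 0.89 (exact p = 0.039). As Psmb10 itself hardly changed between stages 1 and 4, the difference restates the fall of Psmb7 on the same arrays. Psmb7 (mean level 10.64) was also brighter than Psmb10 (7.76), and bright probe sets fell in general. The part of level in this difference was not tested.

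**Figure D4:**
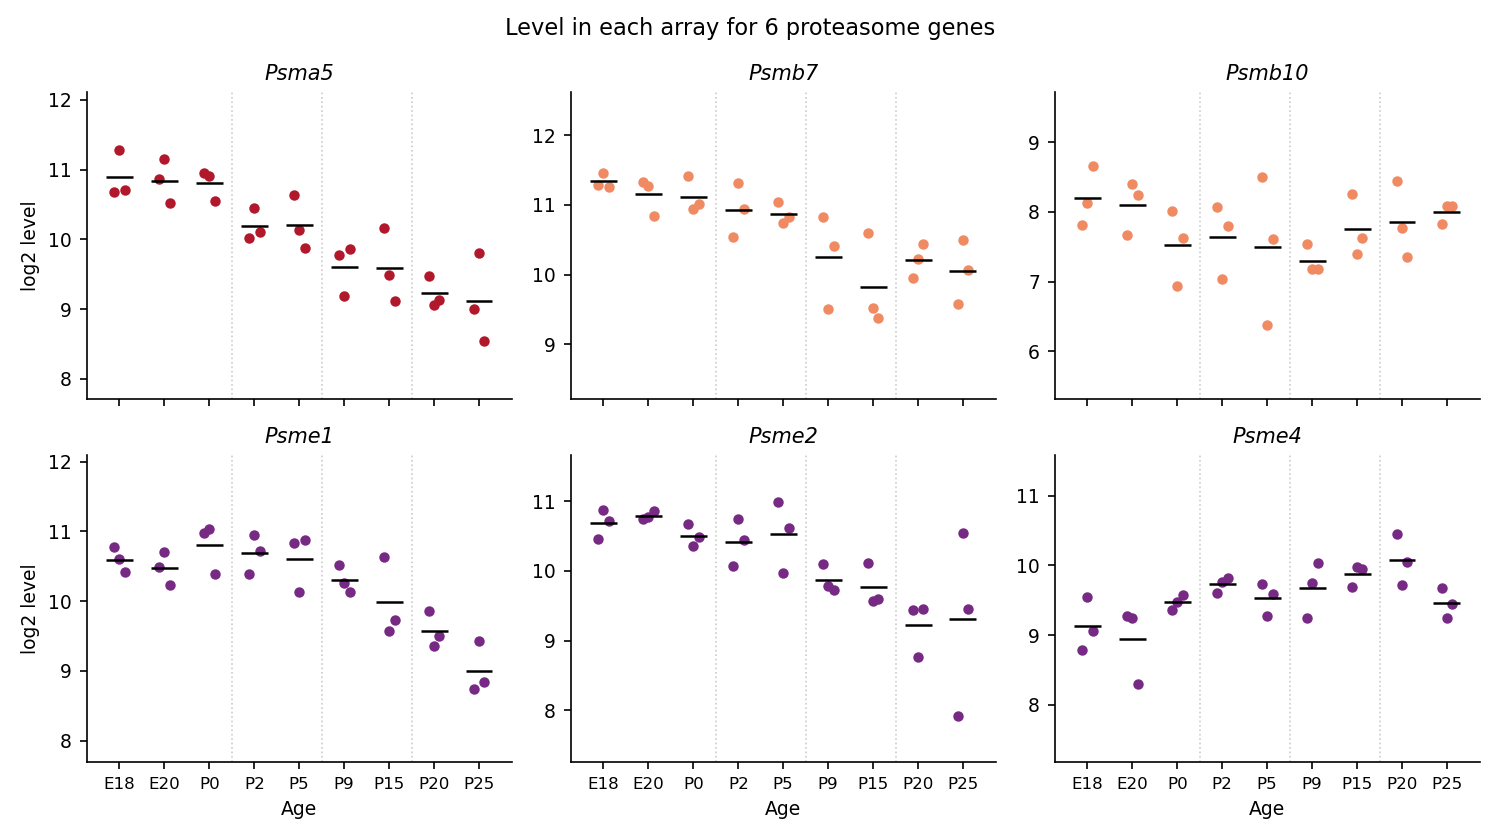
log2 level in each array of Psma5, Psmb7, Psmb10, Psme1, Psme2 and Psme4 by age (points are arrays, bars are means of 3, dotted lines lie between stages, and each panel spans the same number of log2 units). Psma5 and Psmb7 are lower in every array of P20 and P25 than in any of E18 to P0, Psme1 has a mean of 9.00 at P25, and the Psmb10 arrays of early and late ages overlap.

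The 6 ATPases of the regulatory particle unfold substrates and feed them to the core. Of these, 5 fell, with a class median of -0.61 (-0.80 relative to all probe sets). Psmc1 fell by 1.34 ± 0.17 (2.54-fold, adjusted p = 2.37e-06). Its arrays lay between 10.80 and 11.57 in stage 1 and between 9.20 and 10.30 in stage 4, with no overlap. Psmc5 fell by 0.75 ± 0.22, Psmc3 by 0.69 ± 0.22, Psmc6 by 0.53 ± 0.19 and Psmc2 by 0.46 ± 0.15. In these 4 the stages overlapped, and under quantile normalisation their adjusted p-values were 0.075, 0.121, 0.194 and 0.225. Without P25 replicate 1 neither Psmc3 (-0.46, adjusted p = 0.0608) nor Psmc2 (-0.39, adjusted p = 0.0505) was called, and the call of Psmc6 was lost without P0 replicate 1, P20 replicate 2 or 3 or P25 replicate 2 or 3 (adjusted p up to 0.076). Psmc4 changed by -0.44 ± 0.21 (adjusted p = 0.0937), and its dim further probe set (mean 2.88) rose by 0.44 ± 0.15. The bright probe set of Psmc6 had the smallest change of its 3, whose others fell by 0.91 ± 0.22 and 0.86 ± 0.24. Psmc1 was thus the one ATPase that fell under each of the 4 scalings.

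Among the 11 non-ATPase subunits, 5 fell and none rose, with a median of -0.43 (-0.62 relative to all probe sets). This class median lay close to the -0.39 of all probe sets with a mean of at least 9. Psmd14, the deubiquitinase that removes the ubiquitin chain before a substrate enters the core, had 9.91, 8.76 and 10.49 at E18, 9.86, 9.97 and 9.42 at E20 and 10.11, 9.42 and 9.66 at P0. It had 8.77, 8.76 and 8.81 at P20 and 7.57, 7.57 and 8.12 at P25. Apart from E18 replicate 2, the early arrays lay above the late ones. Psmd14 fell by 1.47 ± 0.25 (2.77-fold, adjusted p = 0.000127), and its 2 further probe sets fell by 1.63 ± 0.21 and 2.03 ± 0.29. Its mean was still 9.83 at P5 and reached 7.75 only at P25.

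The other non-ATPase subunits that fell were Psmd2 and Psmd1, the large scaffolds of the base, by 0.75 ± 0.19 and 0.61 ± 0.19, Psmd7, the partner of Psmd14, by 0.72 ± 0.24 (0.88 ± 0.20 on a further bright probe set), and Psmd6, a lid subunit, by 0.65 ± 0.25. Their adjusted p-values with arrays scaled to the same mean and SD were 0.0751, 0.0891, 0.191 and 0.15. The fall of Psmd6 was not called without any 1 of 8 arrays (adjusted p up to 0.121, without P20 replicate 2). That of Psmd1 was not called without P20 replicate 2 (0.0504) or P25 replicate 1 (0.0575), nor that of Psmd7 without P20 replicate 1 (0.053) or P25 replicate 1 (0.0547).

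No change was called for the ubiquitin receptor Psmd4 (-0.43 ± 0.20) or for the lid subunits Psmd8 (-0.24 ± 0.21), Psmd12 (-0.23 ± 0.22), Psmd13 (-0.10 ± 0.18), Psmd11 (0.15 ± 0.18) and Psmd3 (0.28 ± 0.20). Psmd11 had its highest age means at P5 and P9. Its age means were 10.47, 9.91 and 10.06 up to P0, 10.28 at P2, 10.87 at P5, 10.82 at P9, 10.57 at P15, 10.67 at P20 and 9.92 at P25, and it passed the F test over the 9 ages (adjusted p = 0.0442). A dim probe set of Psmd11 (mean 4.33) rose by 0.48 ± 0.19 between stages 1 and 4, and another (8.58) changed by -0.35 ± 0.28. Psmd13 had the narrowest range of age means in the class (0.61) and Psmd14 the widest (2.08).

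Of the 7 assembly chaperones, 2 fell and the median was -0.49 (-0.68 relative to all probe sets). Psmd10, which holds an ATPase until the base is complete and is known as the oncoprotein gankyrin, fell by 1.37 ± 0.31 (2.58-fold, adjusted p = 0.0015), with 9.18 to 9.89 in stage 1 and 6.48 to 8.93 in stage 4. Its fall was not called once the marker covariates were in the fit (adjusted p = 0.0718). Psmd9, another chaperone of the base, fell by 0.66 ± 0.23 (adjusted p = 0.0258), but its dim probe set (mean 4.61) rose by 0.54 ± 0.20 and the mean of both gave -0.06 ± 0.15. Its call was lost without E18 replicate 3, P0 replicate 1, P20 replicate 2 or P25 replicate 3 (adjusted p from 0.0524 to 0.092). Psmd5, the remaining base chaperone, changed by -0.47 ± 0.37. The core chaperones Psmg1, Psmg2, Psmg3 and Psmg4 changed by -0.49 ± 0.29, -0.57 ± 0.30, -0.18 ± 0.20 and 0.01 ± 0.26, none called.

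The activators moved in different directions. Psme1 and Psme2 encode the interferon-inducible activator that opens the core independently of ATP. They are neighbours on chromosome 15 in GRCr8, with Emc9 between them and Irf9 nearby. Psme1 had a lowest, median and highest level of 10.23, 10.60 and 11.04 in stage 1, of 10.13, 10.77 and 10.95 in stage 2, of 9.58, 10.20 and 10.64 in stage 3 and of 8.74, 9.40 and 9.86 in stage 4. Stages 1 and 2 covered the same range and stage 4 lay below stage 1 altogether, a fall of 1.34 ± 0.19 (2.52-fold, adjusted p = 1.18e-05). A further probe set of Psme1 gave -0.88 ± 0.76. Psme2 fell by 1.40 ± 0.27 (2.63-fold, adjusted p = 0.000366), with 10.36 to 10.87 in stage 1 and 7.92 to 10.54 in stage 4, where P25 replicate 2 (10.54) stood among the early arrays and P25 replicate 1 (7.92) far below. Psme4, the large nuclear activator linked to histone degradation, had 8.30 to 9.58 in stage 1 and 9.25 to 10.46 in stage 4 and rose by 0.58 ± 0.18 (adjusted p = 0.012). Its further probe sets disagreed, with a fall of 0.50 ± 0.18 and a change of 0.34 ± 0.23, and the mean of the 3 gave 0.14 ± 0.11 (adjusted p = 0.296). The rise was also not called with the marker covariates (adjusted p = 0.169) or without the muscle-rich arrays (adjusted p = 0.0647).

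Of the genes named after a subunit, Psmc3ip, a factor of homologous recombination, fell by 1.26 ± 0.27 between stages 1 and 4. Its age means were 8.44 at E18 and 6.47 at P25, a fall of 1.97 ± 0.41. Psme3ip1 changed by 0.08 ± 0.20 between stages 1 and 4.

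**Figure D5:**
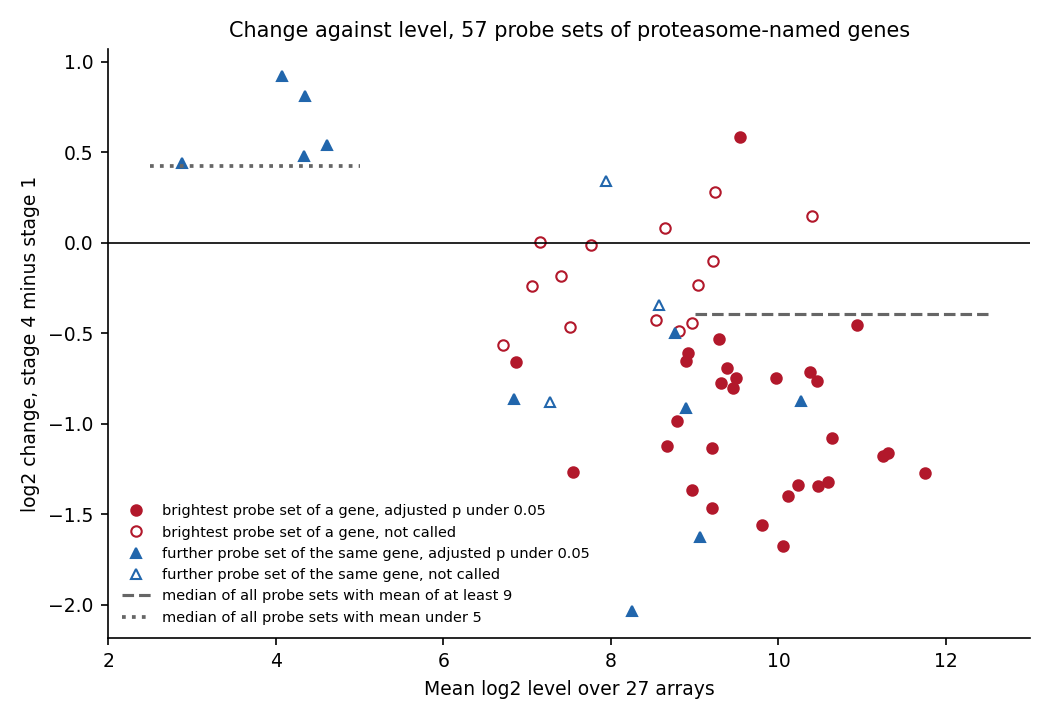
Change between stages 1 and 4 against mean level for the 57 probe sets of the 43 genes (circles are the brightest probe set of a gene, triangles the further ones), with the medians of all probe sets with a mean of at least 9 (-0.39) and under 5 (0.42). All 5 triangles under a mean of 5 lie above 0, while most circles lie below the median of the bright probe sets.

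Over all 9 ages, 17 members passed the moderated F test, where 24.5% of all probe sets did, and 25 had an unadjusted p under 0.05, where 39.2% of all did. They were the 7 alpha subunits, Psmb3, Psmb4, Psmb7, Psmc1, Psmd9, Psmd11, Psmd14, Psme1, Psme2 and Psmc3ip. The alpha subunits, Psmb3, Psmb4, Psmb7 and Psmc1 were thus among the members with the clearest course by both the F test and the stage contrast. Without the 7 muscle-rich arrays 6 members passed, and with the marker covariates or with the 3' to 5' difference of the GAPDH control as a covariate 11 did. The shares of all probe sets that passed under these settings are not given here. The smaller counts therefore cannot be read as a smaller change of the members.

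Between adjacent stages few members were called. From stage 1 to stage 2 the median of the members was -0.29 (-0.67 with the marker covariates, -0.19 without P5 replicate 2) and 36 of 43 were lower, and 1 fell, Psma7, by 0.52 ± 0.14 (adjusted p = 0.0478), where 1.33% of all probe sets fell. This call was lost when any 1 of 20 of the 27 arrays was left out. From stage 2 to stage 3 the median was -0.42 (-0.48 relative to all probe sets) with 39 lower, and 1 fell, Psmb3, by 0.83 ± 0.18 (adjusted p = 0.0336), where 0.480% of all probe sets fell. With the marker covariates this median was -0.14 and without the muscle-rich arrays -0.27, against -0.67 and -0.42 for the step before, so the order of the medians of these steps turned under both settings. An unadjusted p under 0.05 was found for 17 members, all lower, 5 of them alpha subunits, and for 15.5% of all probe sets in either direction. The call of Psmb3 was lost without P2 replicate 1 or 2, P5 replicate 1 or 3, P9 replicate 2 or P15 replicate 2 or 3 (adjusted p up to 0.103). From stage 3 to stage 4 the median was -0.08 with 25 lower, Psme1 fell by 0.85 ± 0.21 (adjusted p = 0.0124) and Psmd3, a lid subunit, rose by 0.77 ± 0.22 (adjusted p = 0.0307), where 4.27% of all probe sets fell and 4.09% rose. The rise of Psmd3 was lost without P9 replicate 2 or 3, P15 replicate 2, P20 replicate 1 or P25 replicate 3 (adjusted p up to 0.0871).

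In each of the 8 steps between adjacent ages limma called 0 members, where 0.0161%, 0.0129%, 0.184%, 0.00644%, 0.0290%, 0.0612%, 0.358% and 0.921% of all probe sets were called in the order of age. The medians of the members were -0.19 from E18 to E20, 0.02 to P0, -0.25 to P2, 0.16 to P5, -0.49 to P9, 0.04 to P15, -0.03 to P20 and -0.18 to P25. The step from P5 to P9 had the lowest median, with 40 of 43 members lower. Array SDs were 2.28 to 2.38 at P5 and 2.15 to 2.22 at P9, so the spread of levels also narrowed there. The shares of all probe sets that were lower are not given for these counts. From P5 to P9, 8 members, all lower, had an unadjusted p under 0.05, where 13.1% of all probe sets did in either direction. In the other steps 0, 0, 3, 2, 3, 2 and 4 members had one, where 4.83%, 3.32%, 7.90%, 5.02%, 6.11%, 8.22% and 15.7% of all probe sets did. With 3 arrays against 3 and so few probe sets called, the absence of calls in single steps says little about the members. That step is also where the sections changed from heads to dissected glands, so age and preparation cannot be told apart there.

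Each preparation was therefore also examined alone. In heads, P5 against E18 gave a median of -0.29 with 38 of 43 members lower and 0 called by limma, where 1.26% of all probe sets were called, and 4 members, all lower, had an unadjusted p under 0.05, where 11.4% of all probe sets did. This median was -0.85 with the marker covariates, -0.60 without the muscle-rich arrays and -0.46 without P5 replicate 1. In dissected glands, P25 against P9 gave a median of -0.18 (-0.32 relative to all probe sets) with 29 lower. It rested on single arrays, with -0.43 without P9 replicate 2, -0.00055 without P25 replicate 1 and -0.05 with array weights, and was -0.08 with the GAPDH covariate. There Psme1 fell by 1.30 ± 0.29 (adjusted p = 0.00766) and Psmd14 by 1.34 ± 0.39 (adjusted p = 0.0376), where 4.15% of all probe sets fell. The call of Psmd14 was lost without P9 replicate 1 or 2 or P25 replicate 1 or 2 (adjusted p up to 0.118). Both genes had their lowest age mean at P25.

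The widest span, P25 against E18, had 24 members that fell and 0 that rose by limma, where 13.4% of all probe sets fell and 20.1% rose, and 26 members, all of them lower, had an unadjusted p under 0.05, where 44.7% of all probe sets did in either direction. The median was -1.04 (-1.29 relative to all probe sets) and 40 of 43 were lower. Probe sets with a mean of at least 9 fell more often than all probe sets between stages 1 and 4 (45.4% against 17.8%). Their share is not given here for P25 against E18. All 7 alpha subunits fell, from 1.10 ± 0.25 in Psma6 to 1.98 ± 0.42 in Psma1 (3.95-fold). So did 6 of the 7 beta subunits, 4 of 6 ATPases (Psmc1, Psmc2, Psmc3 and Psmc5), 3 of 11 non-ATPases (Psmd2, Psmd7 and Psmd14), the chaperone Psmd10, Psme1, Psme2 and Psmc3ip. Among the large changes were those of Psmd14 (-1.97 ± 0.39), Psmc1 (-1.69 ± 0.26) and Psme1 (-1.59 ± 0.29). Without P25 replicate 1, 17 members fell, and Psmb1, Psmb2, Psmb5, Psmc2, Psmc3, Psmd7 and Psme2 were not called, with smaller changes of -0.86 for Psmb2, -0.83 for Psmc3 and -0.69 for Psme2. Psmd10 was not called without P25 replicate 3 (-0.88), and the calls of Psmb1, Psmb2, Psmb5, Psmc2 and Psmd7 were also lost without some other arrays of E18 or P25. When the fit held only the 6 arrays of these ages, 6 members fell. The share of all probe sets that fell in that fit is not given here.

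The rest of the pathway moved in both directions. Of 45 measured genes from lists of ubiquitin activation, shuttles, accessory proteins, proteasome regulators, the p97 segregase and antigen presentation, 12 fell and 8 rose between stages 1 and 4, with a median of -0.11, where 17.8% of all probe sets fell and 27.2% rose. The single lists below are short and are given as counts beside those shares. Of the 20 calls, 7 held under every other setting and without each array (Uba6, Sem1, Pomp, Ngly1, Nsfl1c, Ubxn1 and Ubxn4), and the other 13 were lost under at least 1. Of the 2 enzymes that activate ubiquitin, Uba6 fell by 1.12 ± 0.19 while Uba1 changed by -0.19 ± 0.15. Among 10 accessory proteins outside the Psm names, 2 fell, Sem1, a small lid subunit, by 0.73 ± 0.13 and Pomp, the maturation factor of the core, by 0.90 ± 0.21. In both, every stage 4 array lay below every stage 1 array.

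Of 8 regulators of proteasome genes or activity, 1 fell and 2 rose. Nfe2l1, which drives proteasome genes when degradation is impaired, was at 7.51 at E18 and 7.62 at P25 and changed by -0.07 ± 0.23. Nfe2l2, its relative in the oxidative stress response, changed by -0.87 ± 0.36 (adjusted p = 0.0517). Ngly1, the glycanase that processes the Nfe2l1 product, rose by 1.23 ± 0.26, with every stage 4 array (8.29 to 9.51) above every stage 1 array (6.85 to 8.01). Akirin2, an import factor of proteasomes into the nucleus, rose by 0.53 ± 0.15 on a dim probe set (mean 4.24), a level at which the median change was 0.42, and was not called after quantile normalisation (adjusted p = 0.155), and Zfand5, an activator of degradation, fell by 0.89 ± 0.16 (-0.14 as the mean of its probe sets).

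Among 5 ubiquitin shuttles, 3 fell and 1 rose. Ubqln2 fell by 0.96 ± 0.15 on its bright probe set, though the mean of its probe sets gave 0.08 ± 0.12. Rad23b fell by 0.45 ± 0.16, Ubqln4 by 0.76 ± 0.22, and the autophagy receptor Sqstm1 rose by 0.62 ± 0.20. With the marker covariates Sqstm1 gave 0.24, and with arrays scaled to the same mean and SD Rad23b gave -0.01. Rad23b was not called without P20 replicate 2 or P25 replicate 1, nor Sqstm1 without P20 replicate 3. Of 13 genes of the p97 segregase, which extracts ubiquitinated proteins from membranes and complexes, 5 fell and 2 rose. Vcp, the ATPase itself, fell by 0.74 ± 0.18, and its cofactors Nsfl1c, Ubxn1, Ufd1 and Ubxn6 by 1.19 ± 0.19, 1.04 ± 0.18, 0.96 ± 0.32 and 0.64 ± 0.19. The cofactor Ubxn4 and the retrotranslocation channel subunit Derl2, both of the endoplasmic reticulum membrane, rose by 0.86 ± 0.19 and 0.78 ± 0.30. The rise of Derl2 was lost without any 1 of 6 arrays and was 0.49 without P25 replicate 2 (adjusted p = 0.149), and the fall of Ufd1 was lost without P25 replicate 2 (adjusted p = 0.0754). With arrays scaled to the same mean and SD Vcp changed by -0.32 (adjusted p = 0.164). Derl1 rose by 0.81 ± 0.24 from stage 3 to stage 4, after a change of -0.59 from stage 2 to stage 3, and had 0.29 ± 0.22 between stages 1 and 4. Its call was lost without any 1 of 9 arrays (adjusted p up to 0.111).

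The immunoproteasome subunits that the rule leaves out, Psmb8 and Psmb9, had positive changes between stages 1 and 4, of which only that of Psmb8 was called, where 27.2% of all probe sets rose. Psmb8 had 4.18 to 6.16 in stage 1 and 5.57 to 7.52 in stage 4, with its highest age mean at P5 (7.22 ± 1.06, SD, n = 3). It rose by 1.65 ± 0.32 from stage 1 to stage 2 (adjusted p = 0.00514) and by 1.34 ± 0.32 from stage 1 to stage 4 (adjusted p = 0.00245). The first was not called with the marker covariates or without the muscle-rich arrays, and the second not with the covariates (1.27, adjusted p = 0.0751). Psmb8 changed by 0.01 ± 0.35 from stage 2 to stage 3 and by -0.33 ± 0.35 from stage 3 to stage 4. From stage 1 to stage 2 the adipocyte markers (9 genes) went from a median of 5.10 to 8.60 and the epidermis markers from 5.88 to 8.84, while the lymphocyte and plasma cell markers went from 4.25 to 4.47 and the macrophage markers from 6.49 to 6.77. Psmb9 changed by 1.06 ± 0.48 (adjusted p = 0.0732) between stages 1 and 4, and rose by 2.09 ± 0.74 between E18 and P25 (adjusted p = 0.0338), where its arrays of P25 spread from 6.63 to 9.47. That call was lost without E18 replicate 2, P25 replicate 2 or P25 replicate 3 (adjusted p up to 0.191), and the change was 1.31 without P25 replicate 2. Of 5 measured genes of interferon regulation and antigen presentation, Irf2 and Nlrc5 rose by 1.91 ± 0.65 and 1.25 ± 0.42, where 27.2% of all probe sets rose, and none fell. Irf1, Tap1 and Tap2 changed by 0.70 ± 0.41, 0.43 ± 0.24 and 0.28 ± 0.15, none called. Irf2 was not called without P20 replicate 2 (adjusted p = 0.0503) or P25 replicate 2 (0.0796), and Nlrc5, on a dim probe set (mean 4.25), had 0.73 without P25 replicate 3 (adjusted p = 0.0882). Lymphocyte and plasma cell markers (10 genes) averaged 3.87 to 4.49 in stage 1 and 5.83 to 6.06 in stage 4, and macrophage markers (10 genes) 5.44 to 6.98 and 6.10 to 6.53. The part of these cells in the rises was not tested. Psme1 and Psme2, whose products are induced by interferon like those of Psmb8 and Psmb9, fell between stages 1 and 4. The part of interferon in any of these changes was not tested.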

How the data were processed

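Total RNA of laser-captured acini was purified per the labels with a PicoPure kit (the study's methods name RNAqueous), amplified with NuGEN Ovation Pico WTA and hybridised to Affymetrix whole-genome rat arrays. The labels name different amounts of input RNA without saying which array had which, so the part of input in the changes was not tested. The values deposited by the authors are log2 signals summarised per probe set by RMA (robust multi-array averaging), so levels are relative to the other probe sets of an array. The software version is not given in the sources used here. No second normalisation was applied. Probe sets were named from the platform annotation: of 31042 tested, 20826 had 1 symbol, 436 several and 9780 none. All 43 members matched RefSeq by gene ID. Of these, 9 had over 1 probe set, and 57 probe sets were examined.

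limma 3.58.1 (R 4.3.3) was fitted to all 27 arrays with 1 coefficient per age and empirical Bayes moderation, and stages were means of their age coefficients. Two-sided p-values received the Benjamini-Hochberg adjustment over the 31042 probe sets (threshold 0.05). Changes are log2 units ± SE. Summaries used Python 3.11.15. The fit was tested on simulated data. The number of arrays limits the precision. Members, stages and lists were chosen with earlier results of these data known. Named genes were Psmb5, Psmb7, Psmb10 and the activators, the largest changes per contrast, the widest and narrowest ranges per class and members with discordant probe sets. The other members are named to account for each, and further pathway genes were named after their values were seen. Alternatives were other normalisations, a filter on dim probe sets, array weights, a replicate block, marker covariates, the mean of all probe sets per gene, an ordinary F test, only the ages of a contrast, and leaving out each array.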

Additional observations from a re-analysis of the deposited data

How the results depend on the processing

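Between stages 1 and 4, 29 members were called as deposited and 21 to 29 under the other settings, and 25 to 30 (24 to 29 lower) without 1 array. Of the 28 that fell, 17 fell under each of 11 settings that use 1 probe set per gene. The smaller contrasts rest on few calls. The F test called 17 members, 11 with muscle, epidermis and cartilage markers or with the GAPDH 3' to 5' difference as covariates, 6 without the muscle-rich arrays, and 14 to 19 without 1 array. For stage 2 against 1, with 1 call, array weights gave 2 and 0 were called after quantile normalisation, with only the ages of the contrast, with marker covariates, without the muscle-rich arrays and with the same mean and SD. For stage 3 against 2, with 1 call, array weights gave 9, the mean of probe sets per gene 2, and only the ages of the contrast, marker covariates, no muscle-rich arrays, the GAPDH covariate and the same mean and SD gave 0. For stage 4 against 3, with 2 calls, only the ages of the contrast and marker covariates gave 0, and no muscle-rich arrays 1. For P25 against E18, with 24 calls, only the ages of the contrast gave 6, and no muscle-rich arrays and the same mean and SD each gave 15. For P25 against P9, with 2 calls, quantile normalisation gave 5, median centring, the mean of probe sets and no muscle-rich arrays 1, and only the ages of the contrast and marker covariates 0. Leaving out 1 array gave 0 to 1, 0 to 3, 1 to 3, 17 to 25 and 2 to 3 calls in these 5 contrasts, with 17 for P25 against E18 without P25 replicate 1, 3 for stage 3 against 2 without P15 replicate 1, and 1 for stage 4 against 3 without P15 replicate 2 or P20 replicate 1. P5 against E18 had 0 calls throughout. The cause of these shifts was not tested, and the shares of all probe sets called under most of these settings are not given here.

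The median change of the members kept its sign except in stage 4 against 3 (-0.08), where array weights gave 0.00397 and the same mean and SD 0.00392. Between stages 1 and 4 it was -0.50 after quantile normalisation, -0.44 with the same mean and SD, -0.93 with marker covariates and -0.77 to -0.65 without 1 array. With the mean of all probe sets per gene, the change between stages 1 and 4 was 0.32 for Psmb5 and 0.0763 for Ubqln2, and between E18 and P25 it was 0.31 for Psmb5, 0.24 for Ubqln2 and 0.0120 for Zfand5. For Psmb5 this mean takes in 2 dim probe sets. The change of Psmb10 minus Psmb7 ran from 0.93 to 1.24 without 1 array.

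The labels do not say what a replicate number stands for, and the numbers were not taken as pairs: same-numbered arrays of different ages had a mean correlation of deviations of 0.026 (-0.108 to 0.459). Still, 16 of 27 arrays correlated best with their own number. With the replicate number as a block, 29 members were called between stages 1 and 4, 16 by the F test, 24 between E18 and P25 and 0 between stages 1 and 2, and Psmb10 minus Psmb7 changed by 1.06. The settings without muscle-rich arrays, with the GAPDH covariate and with the same mean and SD were chosen after seeing the data. The planned comparison of Psme1 and Psme2 with Psme3 was not run, since Psme3 had no probe set of its own. The values carry no read depth, and probe sets near the floor can show little of a fall.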
